A study of Mus musculus with 1 sample.

Results

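The Toll-like receptor (TLR) genes of AMs (alveolar macrophages, the macrophages that live in the airspaces of the lung) were examined in single-cell transcriptomes. The set holds 6 receptors (Tlr1, Tlr2, Tlr4, Tlr6, Tlr7 and Tlr13), the co-receptors Cd14 and Ly96, the adaptor Myd88 and the inhibitory kinase Irak3. Of these 10 genes, 9 are among the 11918 genes listed in the data, and Tlr1 is not listed. The questions were which of them are well detected, whether receptors and co-receptors are found in the same cells, and how their levels relate to Tnf and Cxcl2.

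The cells came from the lung of 1 WT adult mouse. WT here means that both Hdac3 alleles were floxed and no Cre was present (Hdac3fl/fl). Its strain was FVB/NJ backcrossed to C57BL/6 over 10 generations, and its labelled age was 8 to 12 weeks. Cells positive for CD45, CD11c and Siglec-F were sorted and sequenced by a 3′ single-cell method that counts UMIs (unique molecular identifiers, each marking 1 captured RNA molecule). The library of the Hdac3-deleted (cKO) mouse was not analysed here. With 1 library there are no replicate mice, no test was made and no p-value is given. All intervals are 95% intervals that cover counting error only.

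TLRs recognise conserved molecules of microbes. Tlr2 reads lipoproteins at the cell surface as a pair with Tlr1 or Tlr6, while Tlr4 reads lipopolysaccharide together with Ly96 (MD-2), to which Cd14 hands the ligand. Tlr7 and Tlr13 sit in endosomes and read RNA. Most TLRs signal through the adaptor Myd88 and the IRAK kinases to NF-kB, which drives cytokine and chemokine genes such as Tnf and Cxcl2, and Irak3 (IRAK-M) restrains this signal.

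The library held 2055 cells with 7222978 UMIs in total, 1143 to 8603 per cell (median 3278), and 528 to 2495 genes per cell (median 1454). The median mitochondrial share was 3.21%, and 384 cells were above 5%, although the methods of the study describe a limit at that value. Chil3, an AM marker, had a UMI in 100% of cells, and 13 of 14 AM markers were listed. Of 8 monocyte and interstitial macrophage markers 6 were listed, with Fn1 in 52.7% of cells, Ms4a7 in 5.79%, Ccr2 in 1.36%, C1qa in 0.389%, and Cx3cr1 and C1qb lower still. A gauge of free RNA was taken from 2 secreted products of lung epithelium, which a sorted macrophage should not make. Sftpc (surfactant protein C) had a UMI in 6.86% of cells and Scgb1a1 (club cell secretory protein) in 5.50%. The other epithelial markers were Epcam in 58.1%, Sftpa1 in 1.41% and Sftpb in 0.389%. Epcam, a surface protein with 2178 UMIs against 172 of Sftpc, was not taken as a gauge, and whether its UMIs come from the AMs or from free RNA was not tested. A share of cells at or below that of Sftpc was therefore not read as expression in individual cells.

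Tlr2 and Cd14 were detected in most AMs, and no other gene of the set came near them. Tlr2 had 3582 UMIs in 1529 cells, 74.4% of cells (95% exact binomial interval 72.5 to 76.3%). Cd14 had 3878 UMIs in 1490 cells, 72.5% (70.5 to 74.4%). Per 10000 UMIs the level was 4.96 for Tlr2 (95% exact Poisson interval 4.80 to 5.12) and 5.37 for Cd14 (5.20 to 5.54). Cd14 was thus the more abundant transcript by 1.08-fold (1.03 to 1.13), while the shares of cells did not differ beyond counting error. In the data as a whole, 6.04% of all genes had a UMI in at least 50% of cells, and 33.8% in at least 10%. Each 3′ molecule is counted once, so these levels are not scaled by transcript length.

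The UMIs of Cd14 were spread less evenly over the cells than those of Tlr2. If each gene had been shared out in proportion to the depth of each cell, 1652 cells would have held Cd14 and 1605 Tlr2, against the 1490 and 1529 observed. At the other end, 41 cells held 8 or more Cd14 UMIs where 8.74 would follow from even sharing, and 13 cells held 8 or more Tlr2 UMIs where 5.73 would. The fullest single cell had 16 UMIs of Cd14 and 15 of Tlr2. Among the 322 genes found in 60 to 85% of cells, the ratio of observed to evenly shared cells had a median of 0.976. That ratio was 0.953 for Tlr2, with 20.2% of those genes below it, and 0.902 for Cd14, with 4.35% below it. Cxcl2 was far more uneven, with 1367 cells observed against 1978.

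Tlr4, Tlr7, the second co-receptor and the adaptor formed a group near 15% of cells. Ly96 (MD-2), the lipopolysaccharide-binding partner of Tlr4, had 380 UMIs in 16.4% of cells (14.8 to 18.0%). Tlr4 itself had 338 UMIs in 15.1% (13.6 to 16.8%). Tlr7, the single-stranded RNA receptor, had 332 UMIs in 14.7% (13.2 to 16.3%), and Myd88 had 332 UMIs in 14.6% (13.1 to 16.2%). Neighbours in this order did not differ beyond counting error, with Ly96 over Tlr4 at 1.12 (0.968 to 1.31) and Tlr4 over Tlr7 at 1.02 (0.872 to 1.19). From Tlr2 down to Ly96 the step was 9.43-fold (8.48 to 10.5). The UMIs of all 4 genes lay close to even sharing: Tlr4 was seen in 311 cells where 308 would follow, Tlr7 in 302 of 303, Myd88 in 300 of 303 and Ly96 in 336 of 342. These counts do not separate AMs that make Tlr4 from AMs that do not.

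Tlr13, the endosomal receptor for bacterial ribosomal RNA, was found in 5.50% of cells with 123 UMIs, Irak3 in 2.87% with 59 UMIs, and Tlr6 in 2.00% with 41 UMIs. All 3 shares lie below that of Sftpc, so they were not read as expression in individual cells, and no cell had more than 1 UMI of Irak3 or Tlr6. Irak3 over Tlr6 was 1.44 (0.95 to 2.20). Depth limits these shares: Tlr4 had a UMI in 9.78% of the 685 shallowest cells and in 21.3% of the 685 deepest, while its level per 10000 UMIs was 0.503 and 0.447. When every cell was thinned to 2000 UMIs (1756 cells, leaving out 299 shallower ones), Tlr2 was found in 59.7%, Cd14 in 58.6%, Ly96 in 10.2% and Tlr4 in 9.0%. Of the 9 listed genes, 6 thus passed 10% of cells at full depth and 3 after thinning.

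**Figure D1:**
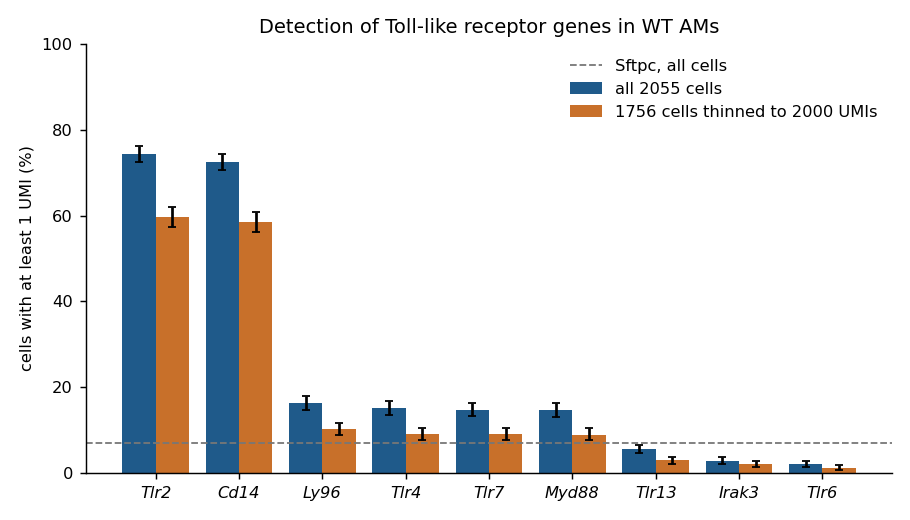
Share of cells with at least 1 UMI of each listed gene (y axis, percent), in all 2055 cells (blue) and in 1756 cells thinned to 2000 UMIs (orange), with 95% exact binomial intervals. Tlr2 and Cd14 stand above 70% at full depth, Ly96, Tlr4, Tlr7 and Myd88 near 15%, and Tlr13, Irak3 and Tlr6 under the dashed line at the 6.86% of cells with Sftpc.

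The other listed receptors of the family were also below the share of Sftpc. Tlr3 (double-stranded RNA) had a UMI in 2.73% of cells, Tlr8 in 1.02% and Tlr5 (flagellin) in 0.730%, and Tlr9, Tlr11 and Tlr12 are not listed. Of 7 listed partners and chaperones, 3 were found in over 10% of cells. Hsp90b1 (gp96), the chaperone that folds TLRs, was found in 92.5% of cells, Cd36, a scavenger receptor that assists Tlr2, in 66.1%, and Unc93b1, which carries endosomal TLRs to their compartment, in 24.6%. The other 4 were Ly86 (7.06%), Cnpy3 (4.72%), Cnpy4 (2.68%) and Cd180 (1.12%), and Lbp is not listed. The other adaptors were low, with Tirap in 6.03%, Ticam1 (TRIF) in 3.21% and Ticam2 (TRAM) in 2.38%. Of 13 kinases and ligases, 6 were found in over 10% of cells, among them Ikbkb in 58.9% and Irak1 in 20.5%. The inhibitor Nfkbia, which holds NF-kB in the cytoplasm, was found in 53.3%.

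Among the genes of the set with a promoter window, only Tlr2 matched the NF-kB consensus, which is why its sequence is shown beside that of Cxcl2. Promoter windows from RefSeq (GRCm38.p6, 300 bases each, 250 of them before the start) were matched for Tlr1, Tlr2, Tlr6, Tlr13, Myd88 and Irak3, and not for Tlr4, Tlr7, Cd14 and Ly96. The NF-kB consensus of 10 letters, searched on both strands, occurs in 8.46% of the 32851 windows. It occurs in 2 stretches of the Tlr2 window, 1 beginning 173 bases and 1 beginning 8 bases before the start. It occurs in 1 stretch of the Cxcl2 window beginning 97 bases before the start, and in no window of the other 5 matched genes or of Tnf. For Tlr1, Tlr6 and Tlr13 the bases after the start were not found in a GENCODE transcript of the gene, so the lack of a match is less certain there. The sequence from 250 bases before the start to the end of the second Tlr2 match, and the same length for Cxcl2, is printed 5′ to 3′ on the strand of the gene, with the NF-kB letters in capitals.
Tlr2, chr3:83841607-83841858, minus strand: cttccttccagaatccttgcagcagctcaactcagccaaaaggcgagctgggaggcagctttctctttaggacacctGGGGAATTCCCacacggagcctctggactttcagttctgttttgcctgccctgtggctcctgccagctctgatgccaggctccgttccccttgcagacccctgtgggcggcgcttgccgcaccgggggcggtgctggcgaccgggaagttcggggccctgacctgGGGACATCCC
Cxcl2, chr5:90903649-90903900, plus strand: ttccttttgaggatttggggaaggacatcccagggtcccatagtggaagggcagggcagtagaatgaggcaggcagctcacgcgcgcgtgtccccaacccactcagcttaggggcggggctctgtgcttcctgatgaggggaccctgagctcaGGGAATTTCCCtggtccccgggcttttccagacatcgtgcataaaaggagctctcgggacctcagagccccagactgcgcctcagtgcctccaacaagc
The AP-1 letters TGANTCA (7.81% of windows) occur in none of these windows. The PU.1 core GAGGAA (28.3% of windows) occurs in those of Tlr13 and Tnf, past the start of Cxcl2 outside the printed bases, and in 1 of 2 windows each of Tlr1 and Irak3. A match describes the letters and not a bound site. The genes themselves lie apart in the genome (GENCODE M21, GRCm38), except that Tlr1 (chr5:64924679-64933563) and Tlr6 (chr5:64952031-64960097) are neighbours. Tlr2 is at chr3:83836272-83841767, Tlr4 at chr4:66827584-66930284, Ly96 at chr1:16688051-16709611 and Tlr7 at chrX:167304929-167330558. Myd88 (chr9:119335934-119341411) overlaps Slc22a14 on its own strand and Acaa1a on the other, and Irak3 (chr10:120141648-120202130) overlaps Tmbim4 on the other strand. Whether these overlaps touch their counts was not tested.

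The parts of the Tlr4 receptor complex were found together about as often as their separate frequencies gave. Cells were divided into 10 equal strata by depth, and the number expected from independence was summed over the strata. Tlr4, Ly96 and Cd14 were all present in 51 cells, 2.48% of cells (1.85 to 3.25%), against 48.0 expected. For the pair Tlr4 and Ly96 the number was 62 against 58.7, for Tlr4 and Cd14 it was 239 against 240, and for Ly96 and Cd14 it was 272 against 263. Ly96 had a UMI in 19.9% of Tlr4-positive cells (15.6 to 24.8%) and in 15.7% of the others, but the Tlr4-positive cells were also deeper (median 3843 against 3177 UMIs). Within depth strata the odds ratio was 1.09. Cells with all 3 genes had a median of 5110 UMIs, above the 3278 of the library.

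Tlr2 and its partners gave the same picture. Tlr2 and Cd14 shared 1154 cells, 56.2% (54.0 to 58.3%), against 1144 expected. Tlr2 and Tlr6 shared 31 cells, 1.51% (1.03 to 2.13%), against 32.8 expected, and the pair with Tlr1 could not be formed because Tlr1 is not listed. Tlr2 and Tlr4 shared 244 cells against 245, and Tlr2 and Myd88 shared 244 against 235. Cd36 was found slightly less often with Tlr2 than independence gave, with an odds ratio of 0.769 within depth strata (1018 cells against 1039). Tlr7 and its carrier Unc93b1 had an odds ratio of 1.12.

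**Figure D2:**
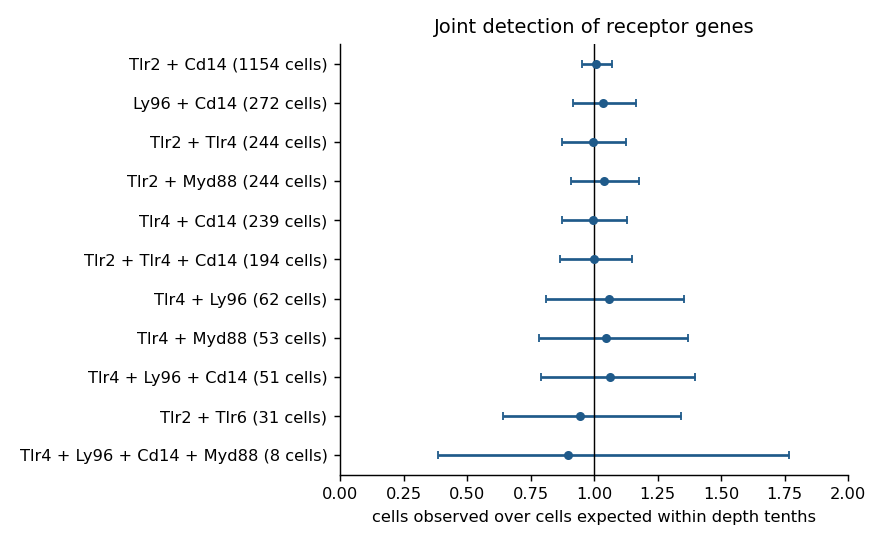
Number of cells holding a UMI of every gene of a set, divided by the number expected from independence within 10 strata of depth (x axis, ratio), with 95% exact Poisson intervals of the observed number. All 11 intervals include 1, and the ratios run from 0.896 for the 8 cells with Tlr4, Ly96, Cd14 and Myd88 to 1.06 for the 51 cells with Tlr4, Ly96 and Cd14.

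Over all 36 pairs of the 9 listed genes, 6 pairs had an odds ratio at least 25% above 1, 7 had 0.8 or less, and the median was 1.00. Most of the extreme pairs rest on few cells. Among the 26 pairs with at least 10 joint cells expected, 1 was past that limit (Cd14 with Tlr13, 1.36, 93 cells against 88.2), 4 were at 0.8 or below, and the range was 0.637 to 1.36. Against all genes the set did not stand out at the upper limit. An odds ratio at least 25% above 1 with Tlr2 was reached by 0 of the other 8 listed genes and by 17.1% of 7999 genes. With Cd14 it was reached by 1 of 8 and by 12.7% of genes. At or below 0.8 with Tlr2 were Tlr6 (0.744) and Tlr13 (0.787), beside 961 of 7999 genes. With Cd14 only Irak3 (0.705) was there, beside 1220 of 7999 genes.

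Tnf and Cxcl2 themselves were unevenly spread. Tnf had 938 UMIs in 407 cells (19.8%), and 41 cells held 5 or more of them where 0.680 would follow from even sharing. Cxcl2 had 9052 UMIs in 66.5% of cells, with up to 202 in a cell. Tnf was found in 24.1% of Cxcl2-positive cells (21.8 to 26.4%) and in 11.3% of Cxcl2-negative cells. These gave 2 comparisons, of 407 Tnf-positive against 1648 Tnf-negative cells, and of 455 Cxcl2-high cells (the upper tertile of the positive ones by UMIs per 10000) against 688 Cxcl2-negative cells. The median depth was 3639 UMIs in Tnf-positive and 3188 in Tnf-negative cells, and 3412 in Cxcl2-high and 2822 in Cxcl2-negative cells, so levels are given as pooled UMIs per 10000.

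The receptor genes differed little between these sets of cells. Tlr2 was at 5.47 (5.11 to 5.85) in Tnf-positive and 4.81 (4.63 to 5.00) in Tnf-negative cells, a ratio of 1.14 (1.05 to 1.23). Cd14 was at a ratio of 1.09 (1.01 to 1.18), Tlr7 at 1.19 (0.917 to 1.53), Tlr4 at 1.04 (0.793 to 1.34) and Myd88 at 0.972 (0.738 to 1.27). By depth tertile, from shallow to deep, Tlr2 was at 1.27, 1.15 and 1.11, above 1 in each, while Cd14 was at 1.31, 0.952 and 1.09 and so turned in the middle. The sparse Tlr13, Tlr6 and Irak3 were at 0.896, 0.987 and 0.805, and their intervals all included 1. No gene of the set was 25% higher or more, against 6.3% of the 6146 genes with at least 100 UMIs. The median ratio was 0.987 over the 9 listed genes and 0.985 over all genes.

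Ly96 was lower in Tnf-positive cells. It had 66 UMIs in Tnf-positive cells and 314 in Tnf-negative cells, 0.412 against 0.558 per 10000, a ratio of 0.738 (0.557 to 0.965). It was the 1 gene at or below 0.8-fold among the 7 of the set with at least 100 UMIs, against 9.55% of all genes. With 1 of 7 the set does not stand out from that share. A lower ratio than that of Ly96 was found for 4.87% of genes. The ratio was below 1 in each depth tertile, at 0.379 in the shallow cells (4 UMIs against 64), 0.686 in the middle and 0.820 in the deep cells. In the 41 cells with 5 or more Tnf UMIs, Ly96 had 2 UMIs, or 0.108 per 10000 (0.0131 to 0.390), against 0.558 (0.498 to 0.624) in Tnf-negative cells. The cells with 2 to 4 Tnf UMIs were at 0.50 (0.306 to 0.773), which overlaps the Tnf-negative level, so the order over the classes was not steady. Split by both genes, Ly96 was at 0.387 in cells with Tnf and Cxcl2, 0.544 with Tnf alone, 0.568 with Cxcl2 alone and 0.538 with neither.

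**Figure D3:**
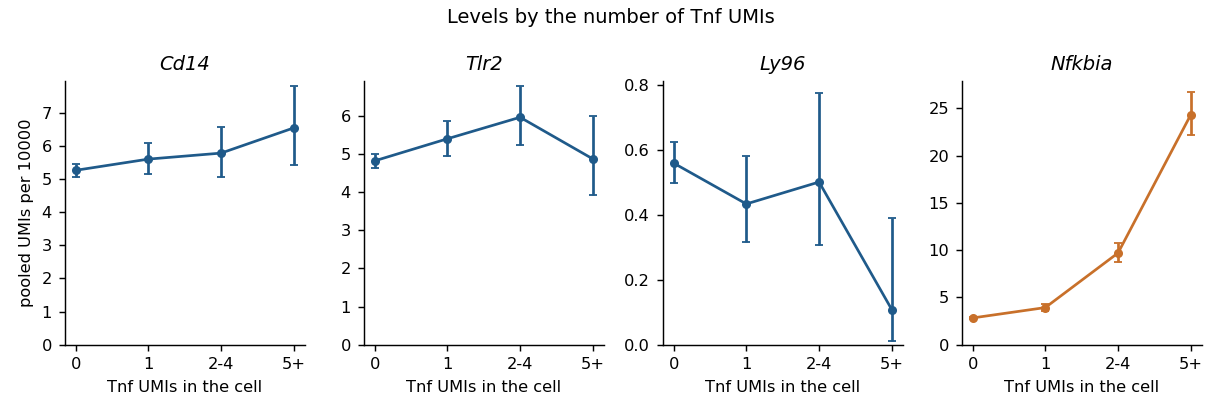
Pooled UMIs per 10000 (y axes, starting at 0) of Cd14, Tlr2, Ly96 and Nfkbia in cells with 0, 1, 2 to 4 and 5 or more Tnf UMIs (1648, 273, 93 and 41 cells), with 95% exact Poisson intervals. Nfkbia goes from 2.84 to 24.3 over these classes while Cd14 goes from 5.26 to 6.54, Tlr2 from 4.81 to 4.86 by way of 5.95, and Ly96 is at 0.108 in the last class.

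With Cxcl2, Cd14 showed the clearest difference of the set. It was at 6.09 (5.72 to 6.48) in Cxcl2-high and 4.92 (4.62 to 5.23) in Cxcl2-negative cells, a ratio of 1.24 (1.13 to 1.35). Over the 4 classes from Cxcl2-negative through the lower, middle and upper tertile of positive cells, Cd14 was at 4.92, 5.13, 5.49 and 6.09. Tlr2 was at 4.58, 4.58, 5.54 and 5.32 over the same classes, and its ratio was 1.16 (1.06 to 1.27). Seen from the other side, the level of Cxcl2 was 7.81 (7.38 to 8.25) in Cd14-negative cells and 10.2, 14.6 and 17.3 (16.7 to 17.9) in the lower, middle and upper tertile of Cd14-positive cells. The share of cells with Cxcl2 was 58.2%, 70.8%, 68.6% and 69.6%, at median depths of 2615, 3710, 3625 and 3322 UMIs. Among Cd14-positive cells the level of Cxcl2 thus rose over the tertiles while the raw share of cells did not. Shares depend on depth and were not compared at like depth over the tertiles, so they do not show that the share is unchanged. For Cd14-positive against Cd14-negative cells, the odds ratio of Cxcl2 within depth strata was 1.21. After thinning, Cxcl2 was found in 56.1% (53.0 to 59.1%) and 51.4% (47.7 to 55.1%), and these intervals overlap. These intervals leave out the spread between cells, which is wide for Cxcl2.

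Tlr4 (1.02), Myd88 (1.03), Tlr13 (1.00) and Ly96 (0.926) were near 1 in Cxcl2-high cells. Tlr7 was at 0.792 (0.570 to 1.09), but it turned to 1.32 in the deep tertile, and after thinning it was 1.33. Irak3 (5 UMIs against 18) was at 0.347 (0.101 to 0.970), and Tlr6 (9 against 15) was at 0.750 (0.289 to 1.83). Irak3 was at 0.154 in the middle tertile of Cxcl2-positive cells, above all other classes, so its order over the classes was not steady either. No gene of the set was 25% higher or more, against 6.83% of all genes. After thinning, Cd14 (1.35), Tlr7 (1.33) and Myd88 (1.27) passed that limit. With Cxcl2-high as the top 10% of all cells, Tlr13 (1.44), Cd14 (1.43) and Myd88 (1.27) did. The mean over cells put Tlr13 past it (1.28). The share over all genes was not computed for these alternatives. Of the 7 genes with at least 100 UMIs, 1 (Tlr7) was at or below 0.8-fold, against 15.2% of all genes.

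Most target genes of the pathway had ratios further from 1 than the receptors, while the median of its kinases was near 1. Over all genes, 6.3% were at least 25% higher with Tnf and 6.83% with Cxcl2. Of 9 NF-kB target genes with enough UMIs, 8 were at least 25% higher in Tnf-positive cells (median ratio 2.61) and 9 in Cxcl2-high cells (median 3.99). Among these targets, Il1a, Cxcl1 and Cxcl3 were named by the paper with Tnf and Cxcl2 for a cluster of these WT AMs. Their higher levels here could therefore be foreseen from the same data. Cxcl1, a neutrophil chemokine, was at 7.22 (6.07 to 8.61) and 24.8 (16.7 to 38.3), and Il1b at 1.85 (1.65 to 2.06) and 2.79 (2.42 to 3.22). Of 6 inhibitors 2 were higher in each comparison. Nfkbia was at 2.73 (2.53 to 2.94) and 4.44 (3.98 to 4.96), and Tnfaip3 (A20) at 2.18 (1.92 to 2.48) and 3.19 (2.69 to 3.8), while Tollip (1.03 and 1.00), Cyld (0.896 and 0.977), Trim30a (0.821 and 1.06) and Peli1 (1.13 and 0.958) were near 1. Of 10 kinases and ligases, 0 were higher and 2 lower in each comparison. Over all genes, 9.55% were that much lower with Tnf and 15.2% with Cxcl2, so these counts do not stand out. Irak4, which binds Myd88, was at 0.472 (0.261 to 0.799) in Tnf-positive cells on 16 UMIs and 0.972 (0.607 to 1.55) in Cxcl2-high cells. Chuk was at 0.769 (0.564 to 1.03) and 0.693 (0.491 to 0.970). The median over these 10 was 0.98 and 0.966. Of 4 transcription factors, 0 were higher in Tnf-positive and 3 in Cxcl2-high cells, and the NF-kB subunit Rel was at 1.22 (1.07 to 1.39) and 1.65 (1.41 to 1.92). Immediate-early and heat shock genes, which respond to handling of tissue among other stimuli, moved with both sets of cells. Of 14 such genes, 8 were higher in Tnf-positive and 10 in Cxcl2-high cells, with Egr1 at 4.08 and 7.56, and their part in these differences was not tested. 

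Some markers of other cells also differed between the sets, in part on few UMIs, and their part in the results was not tested. The 3 listed dendritic cell markers had 2 UMIs in Tnf-positive and 34 in Tnf-negative cells, a ratio of 0.206 (0.0240 to 0.806), and 3 against 22 by Cxcl2, a ratio of 0.170 (0.0327 to 0.567). The 2 B cell markers had 3 UMIs in 3 Tnf-positive cells against 19 in 6 Tnf-negative cells. That ratio was 0.554, and its interval (0.105 to 1.88) includes 1. By Cxcl2 they had 1 UMI in 1 cell against 12 in 3 cells, a ratio of 0.104 (0.00244 to 0.704). MHC class II genes were 20% lower or more for 4 of 4 genes with Tnf (median 0.687) and 3 of 4 with Cxcl2 (median 0.754). The 3 neutrophil markers were at 1.27 (0.992 to 1.61) and 1.19 (0.896 to 1.58). The monocyte and interstitial macrophage sum was at 1.05 and 1.04, nearly all of it Fn1, and without Fn1 it was at 0.942 (0.659 to 1.32) and 1.20 (0.790 to 1.82). Ccr2 had 9 UMIs against 22 (1.44, 0.582 to 3.25) and 7 against 4 (2.19, 0.556 to 10.2). Of the gauge of free RNA, Sftpc was at 0.996 (0.675 to 1.44) with Tnf but at 1.76 (1.11 to 2.82) with Cxcl2, on 48 UMIs against 34. Without the cells holding Sftpc or Scgb1a1, Cd14 in Cxcl2-high cells was at 1.23 and Tlr2 at 1.19.

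**Figure D4:**
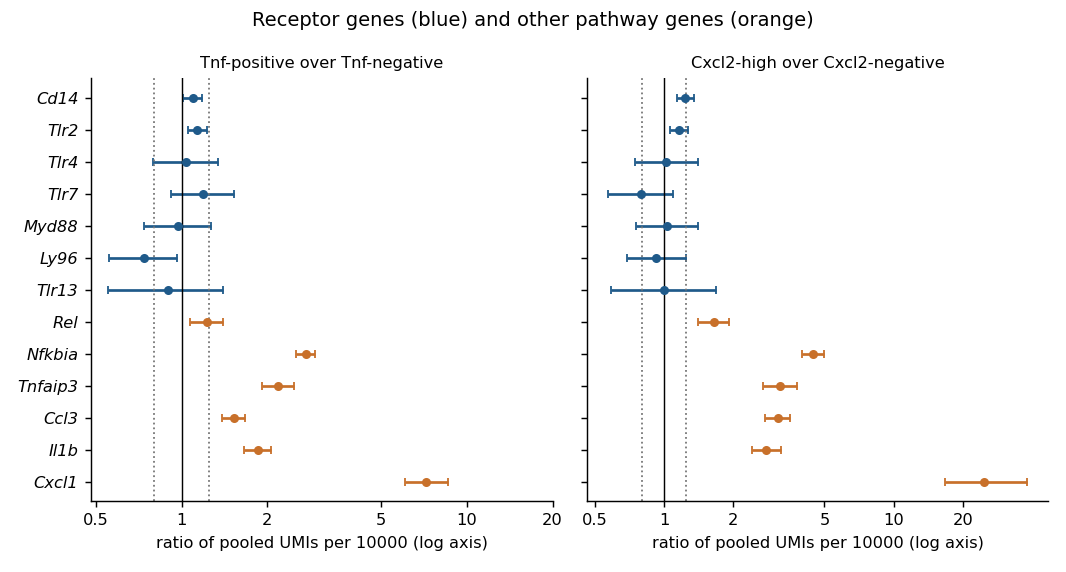
Ratio of pooled UMIs per 10000 (x axes, log scale) in Tnf-positive over Tnf-negative cells (left) and Cxcl2-high over Cxcl2-negative cells (right), with 95% exact conditional intervals. The 7 receptor genes with at least 100 UMIs (blue) lie between 0.738 and 1.24. Rel, Nfkbia, Tnfaip3, Ccl3, Il1b and Cxcl1 (orange) lie between 1.22 and 24.8, and were picked for display from the pathway lists. Those lists also hold genes that are not shown. Of 10 kinases and ligases, 0 were at least 25% higher in either comparison, against 6.3% and 6.83% of all genes. The inhibitors Tollip (1.03 and 1.00) and Peli1 (1.13 and 0.958) were near 1.

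Detection as a share of cells went in the same direction as the levels for Tlr2. Tnf was found in 21.6% of Tlr2-positive cells (19.5 to 23.7%) and 14.6% of Tlr2-negative cells, with median depths of 3514 and 2656 UMIs. After thinning it was found in 14.3% (12.25 to 16.58%) and 12.9% (10.48 to 15.54%), and these intervals overlap. Within depth strata the odds ratio of Tlr2 with Tnf was 1.36, with 89.5% of genes below it, and with Cxcl2 1.32, with 87.5% below it. Cd14 had lower odds ratios than Tlr2, 1.19 with Tnf and 1.21 with Cxcl2. For Ly96 with Tnf the odds ratio was 0.635 (56 cells against 74.4 expected).

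Across cells no gene followed Tlr2 or Cd14 closely. The Pearson correlation of log values over 2055 cells, which share 1 library and its depth range, was highest with Trim25 (0.179), Hmox1 (0.164) and Hilpda (0.130) for Tlr2, and with Fth1 (0.182), Hilpda (0.151) and Cd9 (0.150) for Cd14, among 5938 genes. With Cxcl2 the correlation was 0.104 for Cd14 (0.0932 after thinning) and 0.0961 for Tlr2 (0.0538 after thinning), where the 99th percentile over genes was 0.0943 and 0.0814 (0.0613 and 0.0616 after thinning). With Tnf it was 0.0605 and 0.0639. The named genes also fell after thinning. For Tlr2, Trim25 was then at 0.09185 (rank 1), Hmox1 at 0.0743 (rank 17) and Hilpda at 0.0601 (rank 72). For Cd14, Fth1 was then at 0.130 (rank 1), Hilpda at 0.0947 (rank 4) and Cd9 at 0.0940 (rank 5). All of these values are small in sparse counts and are given as a description. In 111 cells with at least 3 UMIs of cell cycle genes (13 of them at that limit and 37 just below it), Cd14 was at 0.807 (0.702 to 0.924) of the level of the other cells and Tlr2 at 0.882 (0.767 to 1.01). In 209 cells with at least 3 UMIs of MHC class II genes (51 at the limit, 82 just below), Cd14 was at 1.12 (1.02 to 1.23) and Tlr2 at 0.923 (0.831 to 1.02).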

How the data were processed

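Single-cell RNA-seq values of 1 library of WT AMs were used. The authors counted UMIs with Cell Ranger on mm10 and deposited, by Seurat, natural log values, ln(1 + x), where x is a gene's UMI count scaled to 10000 UMIs in every cell. The deposited scaled score of each gene and cell is that log value after regression on UMIs and mitochondrial content, and was used in 1 alternative. UMIs were recovered from the log values as whole multiples of a single step per cell (100% within a tolerance of 0.01).

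Levels are pooled UMIs per 10000. Shares have exact binomial, levels exact Poisson and ratios exact conditional 95% intervals, and molecules of 1 cell are not independent samples of a mouse. Ratios at least 25% above 1 or 20% below 1 were counted over genes with at least 100 UMIs. Expected joint cells and Mantel-Haenszel odds ratios were taken within 10 strata of depth, and over genes found in 2 to 98% of cells. A limit on shared sequence found no 98-base sequence of the last 300 bases of these genes in another gene. No doublet caller was run. The authors describe an upper limit of 2500 genes per cell and a scatter gate against doublets in their cytometry. The genes and lists were chosen with earlier results of these data known. The named genes were the members, Tnf and Cxcl2, and genes of pathway lists. Intervals came from scipy 1.17.1, run with Python 3.11.15, and the steps were run on simulated counts. Those counts held no spread between cells beyond counting error and depth. They therefore cannot show how the intervals behave for unevenly spread genes. Alternatives covered depth, mitochondrial content, detection limits, strata, cell sets, averaging, pseudocounts and filters.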

Additional observations from a re-analysis of the deposited data

How the results depend on the processing

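Depth set how many genes of the set passed 10% of cells: 6 as reported, 3 after thinning to 2000 UMIs and 2 when 2 UMIs were required. Joint detection of Tlr4, Ly96 and Cd14 and of Tlr2 and Tlr6 stayed within its counting interval under thinning, the mitochondrial limit and 20 strata. The number of pairs with an odds ratio at least 25% above 1 was 6, and 1 among pairs with at least 10 joint cells expected, a limit chosen after seeing the data. Of the 7 genes with at least 100 UMIs, the number 25% higher or 20% lower in Tnf-positive cells was 1 (Ly96), 2 after thinning (Ly96, Tlr7), 3 with Tnf-positive cells from 2 UMIs (Ly96 0.674, Tlr7 1.40, Tlr13 0.785) and 4 from 5 UMIs (Ly96 0.194, Tlr4, Tlr7, Tlr13), a limit also chosen after seeing the data. In Cxcl2-high cells that number was 1 (Tlr7, lower) and 3 after thinning (Tlr7, Cd14 and Myd88, all higher). With the top 10% of cells it was 4 (Cd14, Myd88 and Tlr13 higher, Ly96 lower). It was 2 with the mean over cells (Tlr7 lower, Tlr13 higher) and 3 with no minimum of UMIs, where Tlr6 and Irak3 join. Tlr7 in Cxcl2-high cells turned from 0.792 to 1.33 after thinning, and the cause was not tested. Leaving out cells with Sftpc or Scgb1a1, also added after seeing the data, left both counts at 1. Log values and scaled scores give no ratio, so only directions were compared: of 9 genes, 7, 7 and 8 kept their direction with Tnf, and 8, 7 and 6 with Cxcl2, for the constants 1 and 0.1 and the score. No paired analysis was possible because there is 1 library, and no replicate could be left out. Genes under 100 UMIs allow no statement on differences of less than several-fold.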
